A study of Mus musculus with 10 samples.

Results

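Complement is a cascade of plasma proteins that tags and lyses targets and calls in phagocytes. In the classical pathway the C1q molecule binds antibody or damaged surfaces and leads to cleavage of C4 and C2, in the alternative pathway C3 and factor B form a convertase that amplifies itself, and soluble or membrane-bound regulators hold both in check. Most plasma complement comes from the liver, but C1q is made largely by macrophages and dendritic cells, and epithelial cells, kidney tubules among them, can make C3 and factor B locally.

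Here 9 complement genes were followed in bulk RNA sequencing of mice after myocardial infarction. They were the classical pathway genes C1qa, C1qb, C1qc and C4b, the shared and alternative pathway genes C3 and Cfb, and the regulators Cfi, Serping1 and Cd55. They were taken by gene name from the deposited table, 9 of 29868 genes, and were selected on the contrast between the 2 groups, with its result known, so their values between groups are given as a description with no test. The MI_NAV group (5 libraries) received navarixin, an antagonist of the chemokine receptor CXCR2, given orally each day for 4 weeks at 1 mg/kg, starting after the operation. The MI group (5 libraries) received saline by the same route and schedule. Both groups had the infarction model and came from wild-type C57BL/6 male mice that were 8 weeks old at the operation. Every difference below therefore lies between 2 infarcted groups, and no sham library was analysed here. The day of tissue collection for sequencing and whether each library came from a separate mouse are not given in the sources used here, so p-values measure only the spread between these libraries. The batch named in the labels equals the group, so batch and treatment cannot be told apart.

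The labels name the tissue as heart, but the defining markers of cardiomyocytes were near 0. All 9 cardiomyocyte markers of 10 listed that the table holds, Myh6 and Tnnt2 among them, averaged under 1 FPKM (fragments per kilobase of transcript scaled to the mapped fragments of the library), and their sum was 0.329 to 0.487 FPKM in MI_NAV and 0.461 to 1.35 FPKM in MI. The 8 proximal tubule markers of the kidney summed to 35380 to 52860 FPKM in MI_NAV and 31980 to 58960 FPKM in MI. Most of that sum was Kap, at 28950 to 56466 FPKM over the 10 libraries. Slc34a1 averaged 622 FPKM in MI_NAV and 743 FPKM in MI, and Slc27a2 764 and 763 FPKM. The 6 markers of collecting duct and distal tubule, also parts of the kidney, summed to 417 to 534 FPKM in MI_NAV and 397 to 946 FPKM in MI. Kidney markers were thus high, and cardiomyocyte markers near 0, in all 10 libraries. The values below are therefore those of the libraries as labelled, and they cannot be read as levels in heart muscle. Depth was estimated at 16720000 to 20520000 fragments per MI_NAV library and 17860000 to 18740000 per MI library, and the share of FPKM in genes of the mitochondrial genome was 25.98 to 45.41% in MI_NAV and 24.44 to 40.55% in MI.

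The genes lie in several clusters of the mm10 genome, on which the table gives coordinates. C1qa (chr4:136895917-136898803), C1qc (chr4:136889804-136893065) and C1qb (chr4:136880129-136886187) sit side by side on the minus strand within 18675 bases. Cfb (chr17:34856374-34862518) lies 85 bases from C2 (chr17:34862604-34898265), and C4b (chr17:34728380-34743882) and C3 (chr17:57203970-57228136) are on the same chromosome, all on the minus strand. Cfi is at chr3:129835884-129875332 on the plus strand, and Serping1 (chr2:84765387-84775444) and Cd55 (chr1:130439027-130462744) are on the minus strand.

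Promoters from 250 bases before to 50 after the start site were found for 4 of the 9 genes in RefSeq (GRCm38.p6). Shown here are those of 2 neighbouring C1q genes and of C3, since these genes differed between the groups in opposite directions. Letters are in lower case, and capitals mark a match to any of 6 motifs searched on both strands.
C1qb: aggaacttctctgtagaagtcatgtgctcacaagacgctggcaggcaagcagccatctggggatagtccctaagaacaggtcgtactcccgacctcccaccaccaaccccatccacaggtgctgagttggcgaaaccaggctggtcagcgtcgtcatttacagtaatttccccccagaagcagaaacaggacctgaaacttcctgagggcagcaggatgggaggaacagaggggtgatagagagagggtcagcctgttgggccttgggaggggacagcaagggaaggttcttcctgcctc
C1qc: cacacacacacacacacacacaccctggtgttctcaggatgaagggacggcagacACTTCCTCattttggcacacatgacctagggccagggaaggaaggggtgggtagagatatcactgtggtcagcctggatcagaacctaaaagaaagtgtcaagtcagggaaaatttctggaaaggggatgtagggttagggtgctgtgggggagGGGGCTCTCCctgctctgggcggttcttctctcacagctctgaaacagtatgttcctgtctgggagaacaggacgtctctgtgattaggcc
C3: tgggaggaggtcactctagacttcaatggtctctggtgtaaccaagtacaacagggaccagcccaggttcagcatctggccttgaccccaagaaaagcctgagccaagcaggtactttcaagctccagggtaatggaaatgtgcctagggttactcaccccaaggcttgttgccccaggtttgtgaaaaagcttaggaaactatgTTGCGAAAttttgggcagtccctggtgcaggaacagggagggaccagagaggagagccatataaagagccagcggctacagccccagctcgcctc
The windows, all on the minus strand, are chr4:136886151-136886450 for C1qb, chr4:136892865-136893164 for C1qc and chr17:57228087-57228386 for C3. The motifs were NF-kB, C/EBP (TTGCNNAA), ISRE, STAT (TTCNNNGAA), PU.1 (GAGGAAGT) and AP-1 (TGANTCA), and none overlapped another in these windows. The C1qc window held a PU.1 match on the opposite strand, ACTTCCTC, whose first base as printed is at -195 from the start site, and an NF-kB match, GGGGCTCTCC, at -41. The C3 window held a C/EBP match, TTGCGAAA, at -45. The C1qb window and that of Cd55, which is not shown, held none of the 6. Of 32544 promoters of this length, 3.11% held the PU.1, 8.49% the NF-kB, 10.8% the C/EBP, 3.45% the ISRE, 8.33% the STAT and 7.79% the AP-1 motif. These matches describe the letters only.

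The 9 genes did not move as a block. The 3 C1q chains and Serping1 were lower on average in MI_NAV, C3 was higher in every MI_NAV library than in any MI library, and the means of Cfb and Cd55 differed by less than 1 SD. Over the 9 genes the median log2 difference, MI_NAV minus MI on log2(FPKM + 0.5), was -0.07, beside a median of -0.12 over all 13412 genes that passed a filter of at least 0.5 FPKM in at least 5 libraries, of which 71.71% had a difference below 0. All 9 passed that filter. Rescaling the libraries by median ratios moved the median of all genes to 0.01, a shift of the whole table by more than the difference of Cfb or Cd55, so these 2 genes have no fixed sign.

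**Figure D1:**
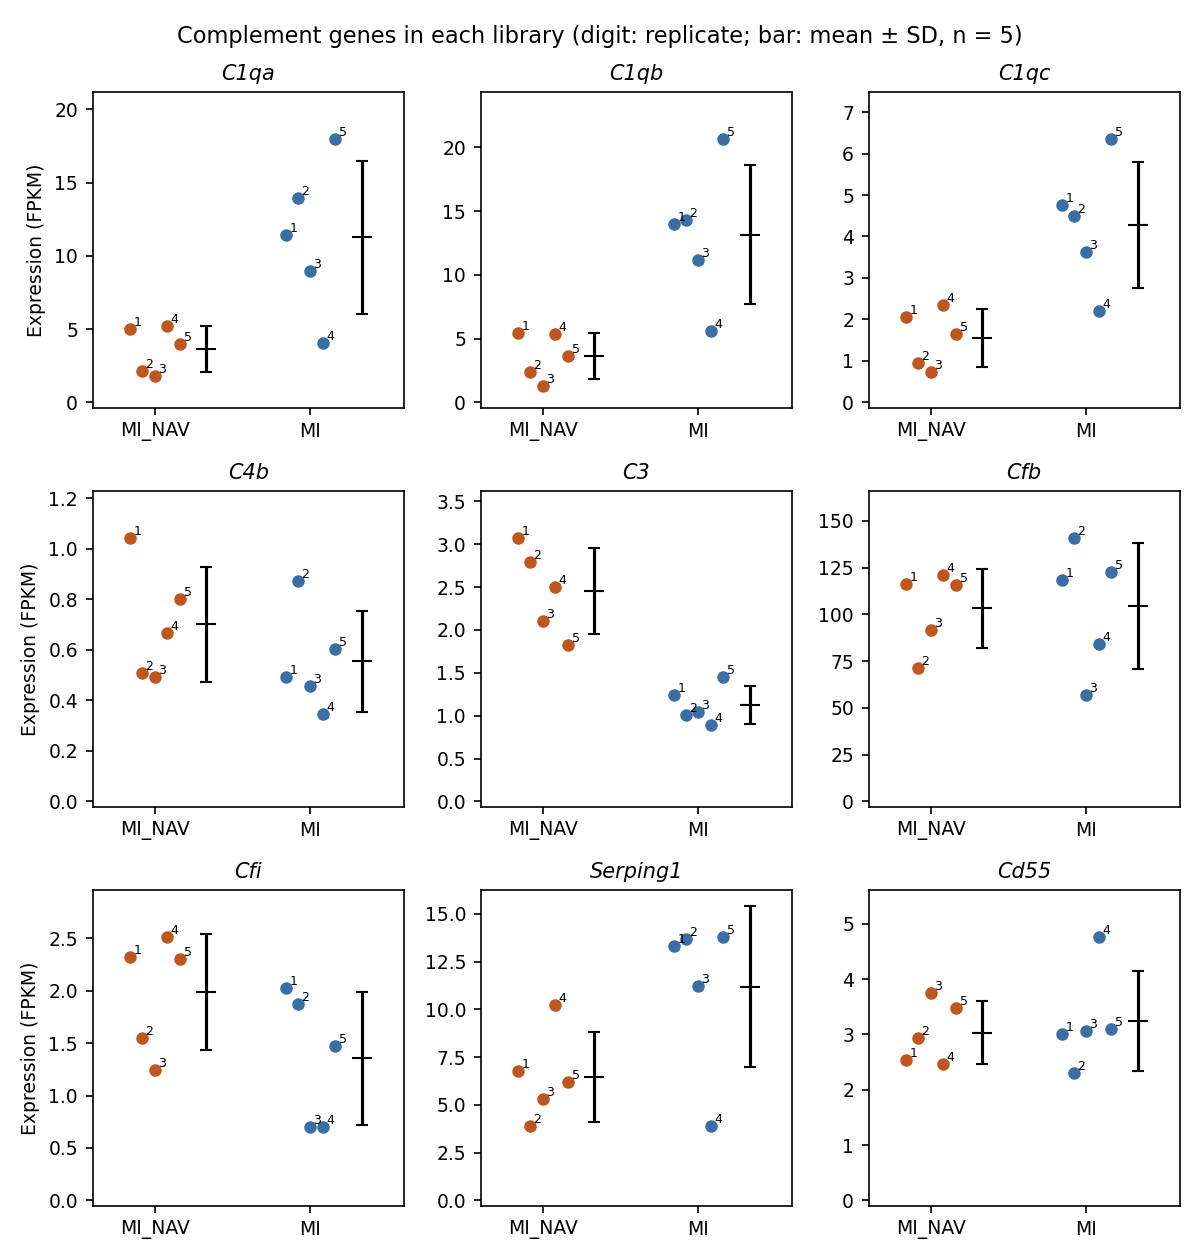
Expression (FPKM, y axis including 0) of the 9 complement genes in the 5 MI_NAV libraries (orange, left) and the 5 MI libraries (blue, right), with the replicate number beside each point and the mean ± SD (n = 5) beside each group. C1qb points of MI_NAV all lie below those of MI and C3 points of MI_NAV all lie above, while Cfb and Cd55 points overlap widely and MI_4 is the low MI point of C1qa, C1qb, C1qc and Serping1.

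C1qa, C1qb and C1qc encode the 3 chains of C1q, the recognition molecule of the classical pathway. C1qb stood at 5.45, 2.35, 1.31, 5.39 and 3.67 FPKM in MI_NAV1 to MI_NAV5, against 14.0, 14.3, 11.1, 5.60 and 20.6 FPKM in MI_1 to MI_5. The groups did not overlap, although MI_4 was only just above the highest MI_NAV library. C1qb averaged 3.63 ± 1.83 FPKM in MI_NAV and 13.1 ± 5.46 FPKM in MI (SD, n = 5 each), a log2 difference of -1.75, and of all tested genes 2.57% were lower in MI_NAV without overlap. Since C1qb was selected on this contrast, nothing is read from its place in that share.

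C1qa stood at 4.99, 2.14, 1.82, 5.24 and 3.96 FPKM in MI_NAV1 to MI_NAV5, against 11.4, 14.0, 8.98, 4.06 and 17.9 FPKM in MI_1 to MI_5. Only MI_4 lay within the MI_NAV range. The log2 difference was -1.46, from means of 3.63 ± 1.58 FPKM in MI_NAV and 11.3 ± 5.22 FPKM in MI. C1qc stood at 2.07, 0.945, 0.739, 2.35 and 1.64 FPKM in MI_NAV1 to MI_NAV5, against 4.76, 4.49, 3.63, 2.20 and 6.34 FPKM in MI_1 to MI_5. MI_4 was again the only MI library within the MI_NAV range. The C1qc log2 difference was -1.23, from means of 1.55 ± 0.696 FPKM in MI_NAV and 4.29 ± 1.52 FPKM in MI.

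The 3 chains kept a similar order of libraries. Each was lowest in MI_NAV3 and highest in MI_5, with a highest value 9.86 times the lowest for C1qa, 15.7 times for C1qb and 8.58 times for C1qc. Their ratios moved far less. C1qa over C1qc ranged from 1.85 to 3.11 over the 10 libraries and averaged 2.36 ± 0.102 in MI_NAV and 2.53 ± 0.478 in MI. C1qb over C1qc averaged 2.28 ± 0.326 in MI_NAV and 3.00 ± 0.281 in MI, with MI_NAV and MI ranges that overlapped. These levels rest on an estimated 28 to 404 fragments per library for C1qb and 18 to 137 for C1qc, so the low MI_NAV values carry wide counting error.

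MI_4 decides whether the ranges of C1qa, C1qc and Serping1 meet. Without it, a comparison chosen after the values were seen, the groups of C1qa, C1qb, C1qc and Serping1 did not overlap in the lower direction, 4 of the 9 genes, and C3 remained apart in the higher direction. The shares of all tested genes then apart were 5.18% lower and 0.395% higher. Since the 9 genes were selected on this contrast, nothing is read from their counts beside these shares. The log2 differences without MI_4 were -1.77 for C1qa, -2.01 for C1qb and -1.42 for C1qc. Other libraries moved them the other way. In the same order they were -1.28, -1.485 and -1.07 without MI_NAV3, and -1.27, -1.56 and -1.09 without MI_5.

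Markers of macrophages, a main source of C1q, moved with the C1q chains, but markers of other cell types were lower in MI_NAV as well. The median log2 difference was -0.97 for the 8 tested macrophage markers. It was -0.95 for the 10 tested endothelial markers and -0.66 for the 7 tested fibroblast markers. The fibroblast markers include Pdgfra, which passed the filter only because it is high in MI. It reached 0.5 FPKM in all 5 MI libraries but in MI_NAV only in MI_NAV1. These medians are therefore a description. The summed level of 14 macrophage markers, Csf1r, Cd68, Lyz2 and Ctss among them, was 19.1 to 35.7 FPKM in MI_NAV (median 26.3) and 24.8 to 82.8 FPKM in MI (median 72.9). No listed marker was at 0 in all libraries. Of the 14, 8 passed the filter, none passed an adjusted p under 0.05 in limma's test (lowest adjusted p = 0.183), and all 8 were lower at an unadjusted p under 0.05, a level at which 11.5% of all tested genes were lower and 1.25% were higher. MI_4, low in C1q, was also the MI library of lowest macrophage sum, at 24.8 FPKM. Csf1r, the receptor for macrophage colony-stimulating factor, was an exception, with its highest values in MI_3 and MI_4 at 9.61 and 9.48 FPKM. In bulk libraries, fewer cells of a type and less RNA per cell cannot be told apart, and the part of macrophage content in the C1q difference was not tested.

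**Figure D2:**
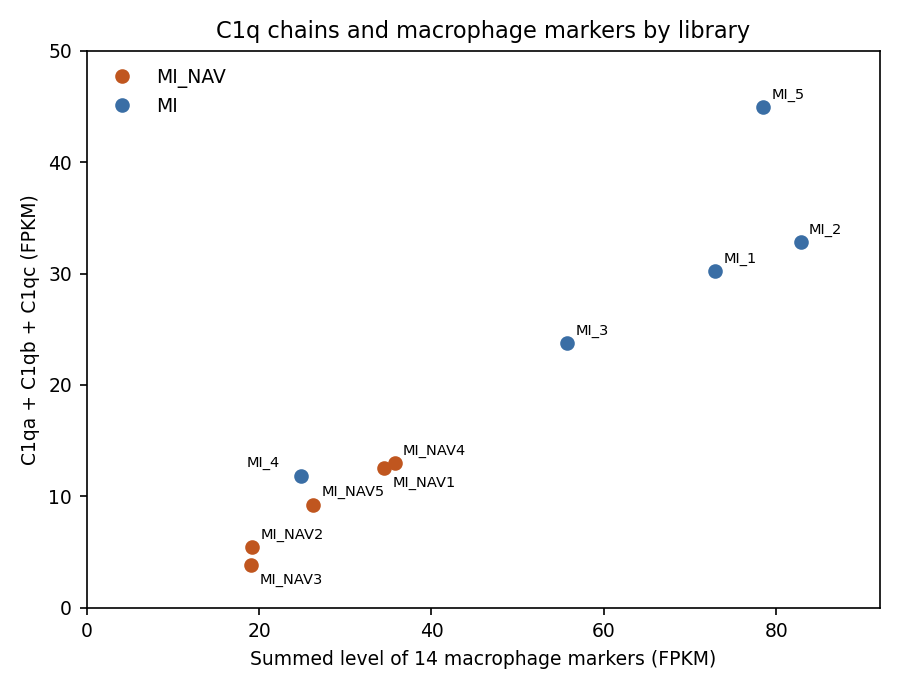
Sum of C1qa, C1qb and C1qc (y axis, FPKM) against the summed level of 14 macrophage markers (x axis, FPKM) in each library, MI_NAV in orange and MI in blue. The 5 MI_NAV libraries lie at 3.87 to 13.0 FPKM of C1q, where MI_4 also lies at 11.9 FPKM, and the 4 other MI libraries lie at 23.7 to 44.9 FPKM with higher marker sums.

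The 5 genes whose log2 levels followed the mean of the 3 chains most closely over the 10 libraries, by the lowest SD of the difference among 11486 genes of at least 1 FPKM, were Cd74, H2-Eb1, Cd52, H2-Aa and Ifitm3, with SDs of 0.199 to 0.271 beside a median of 0.906. Cd74 is the invariant chain of MHC class II, and H2-Eb1 and H2-Aa are class II chains. Cd74 averaged 28.5 ± 10.5 FPKM in MI_NAV and 84.6 ± 40.3 FPKM in MI. All of these genes share the same libraries and their depth.

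C4b encodes complement C4, cleaved by C1s or MASP2. It stood at 1.04, 0.507, 0.492, 0.666 and 0.800 FPKM in MI_NAV1 to MI_NAV5, against 0.493, 0.872, 0.455, 0.345 and 0.604 FPKM in MI_1 to MI_5. The groups overlapped widely, and the means of 0.701 ± 0.228 FPKM in MI_NAV and 0.554 ± 0.201 FPKM in MI differed by less than 1 SD of either group. C4b did not follow the C1q chains. It stood at 0.127 to 0.270 times C1qa in MI_NAV and 0.0336 to 0.0848 times C1qa in MI. Its near-identical neighbour C4a can share reads, so its level is uncertain.

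C3 is the protein on which all pathways converge. It stood at 3.07, 2.79, 2.10, 2.50 and 1.83 FPKM in MI_NAV1 to MI_NAV5, against 1.24, 1.01, 1.04, 0.889 and 1.45 FPKM in MI_1 to MI_5. Every MI_NAV library was above every MI library, and 0.268% of all tested genes were higher in MI_NAV without overlap. C3 too was selected on this contrast, so nothing is read from its place in that share. The means were 2.46 ± 0.502 FPKM in MI_NAV and 1.13 ± 0.221 FPKM in MI, 2.18 times as high in MI_NAV, with a log2 difference of 0.86. It stayed between 0.78 and 0.98 under the 3 other scalings of the libraries. C3 rests on an estimated 162 to 294 fragments in each MI_NAV library and 85 to 134 in each MI library. Hepatocyte markers, 8 genes of the main source of plasma C3, summed to 99.4 to 130.3 FPKM in MI_NAV and 64.7 to 113 FPKM in MI. Most of that sum was Ttr and Serpina1a. Of the 5 that passed the filter, 3 had a log2 difference above 0 and 2 below. Alb averaged 2.27 FPKM in MI_NAV and 2.36 FPKM in MI, and Fga 3.72 and 5.32 FPKM. The part of hepatocyte content in the C3 difference was not tested.

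Cfb encodes factor B, the protease subunit of the alternative pathway convertase. It stood at 116, 71.6, 91.8, 121 and 116 FPKM in MI_NAV1 to MI_NAV5, against 118, 141, 57.0, 84.1 and 122 FPKM in MI_1 to MI_5. The lowest and the highest library of the series were both MI libraries. The means were 103 ± 21.1 FPKM in MI_NAV and 105 ± 33.5 FPKM in MI, with a log2 difference of 0.02 that changed sign in 8 of 19 alternatives, among them rescaling to a common sum (-0.07). Cfb was by far the most abundant of the 9 and took 79.43 to 84.57% of their summed FPKM in MI_NAV and 58.63 to 78.94% in MI. C3 over Cfb averaged 0.0249 ± 0.00873 in MI_NAV and 0.0117 ± 0.00408 in MI, and the ranges overlapped.

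The order of the levels differed between the groups. In MI_NAV it ran Cfb, Serping1, C1qb, C1qa, Cd55, C3, Cfi, C1qc and C4b from high to low, and after Cfb each gene's range overlapped that of the next. In MI it ran Cfb, C1qb, C1qa, Serping1, C1qc, Cd55, Cfi, C3 and C4b, and only Cfb and C1qb, Cd55 and Cfi, and C3 and C4b were neighbours with separate ranges. C3 stood above C1qc in all 5 MI_NAV libraries.

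Cfi encodes factor I, the plasma protease that inactivates C3b and C4b. It stood at 2.32, 1.55, 1.24, 2.51 and 2.30 FPKM in MI_NAV1 to MI_NAV5, against 2.03, 1.87, 0.698, 0.701 and 1.47 FPKM in MI_1 to MI_5. The groups overlapped, with MI_3 and MI_4 alone below the MI_NAV range. The means were 1.98 ± 0.554 FPKM in MI_NAV and 1.35 ± 0.630 FPKM in MI, a log2 difference of 0.46.

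Serping1 encodes the C1 inhibitor, which blocks C1r and C1s. It stood at 6.79, 3.88, 5.28, 10.2 and 6.21 FPKM in MI_NAV1 to MI_NAV5, against 13.3, 13.7, 11.2, 3.90 and 13.8 FPKM in MI_1 to MI_5. MI_4 was at the level of the lowest MI_NAV library, and the other 4 MI libraries were above all MI_NAV libraries. The means were 6.47 ± 2.36 FPKM in MI_NAV and 11.2 ± 4.20 FPKM in MI, a log2 difference of -0.69, which was -1.01 without MI_4. Its ratio to C1s1, which encodes a protease that it blocks, averaged 2.98 ± 0.893 in MI_NAV and 2.53 ± 0.436 in MI, with overlap. The summed level of 8 fibroblast markers, collagen genes among them, was 4.26 to 11.6 FPKM in MI_NAV and 5.97 to 20.9 FPKM in MI, lowest among MI libraries in MI_4, and that of 10 endothelial markers was 13.9 to 32.6 FPKM in MI_NAV and 25.7 to 70.4 FPKM in MI. Of these, Pdgfrb (1 of 7 tested fibroblast markers) and Eng (1 of 10 tested endothelial markers) were lower at a limma adjusted p of 0.0317 each, beside 0.35% of all tested genes lower. Both calls held in 10 of 20 alternatives, with adjusted p from 0.0025 to 0.13 for Pdgfrb and from 0.00193 to 0.13 for Eng, and were lost when any one of the MI libraries other than MI_4, or of MI_NAV1, MI_NAV2, MI_NAV3 and MI_NAV5, was left out. Their part in the Serping1 difference was not tested.

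Cd55 encodes decay-accelerating factor, a membrane protein that breaks up convertases. It stood at 2.55, 2.94, 3.75, 2.46 and 3.47 FPKM in MI_NAV1 to MI_NAV5, against 3.01, 2.30, 3.06, 4.75 and 3.10 FPKM in MI_1 to MI_5. Both the lowest and the highest library were MI libraries. The means were 3.03 ± 0.567 FPKM in MI_NAV and 3.24 ± 0.905 FPKM in MI, a log2 difference of -0.07 that turned to 0.07 with rescaling by median ratios. Reads can be shared with the related Cd55b, so its level is uncertain.

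**Figure D3:**
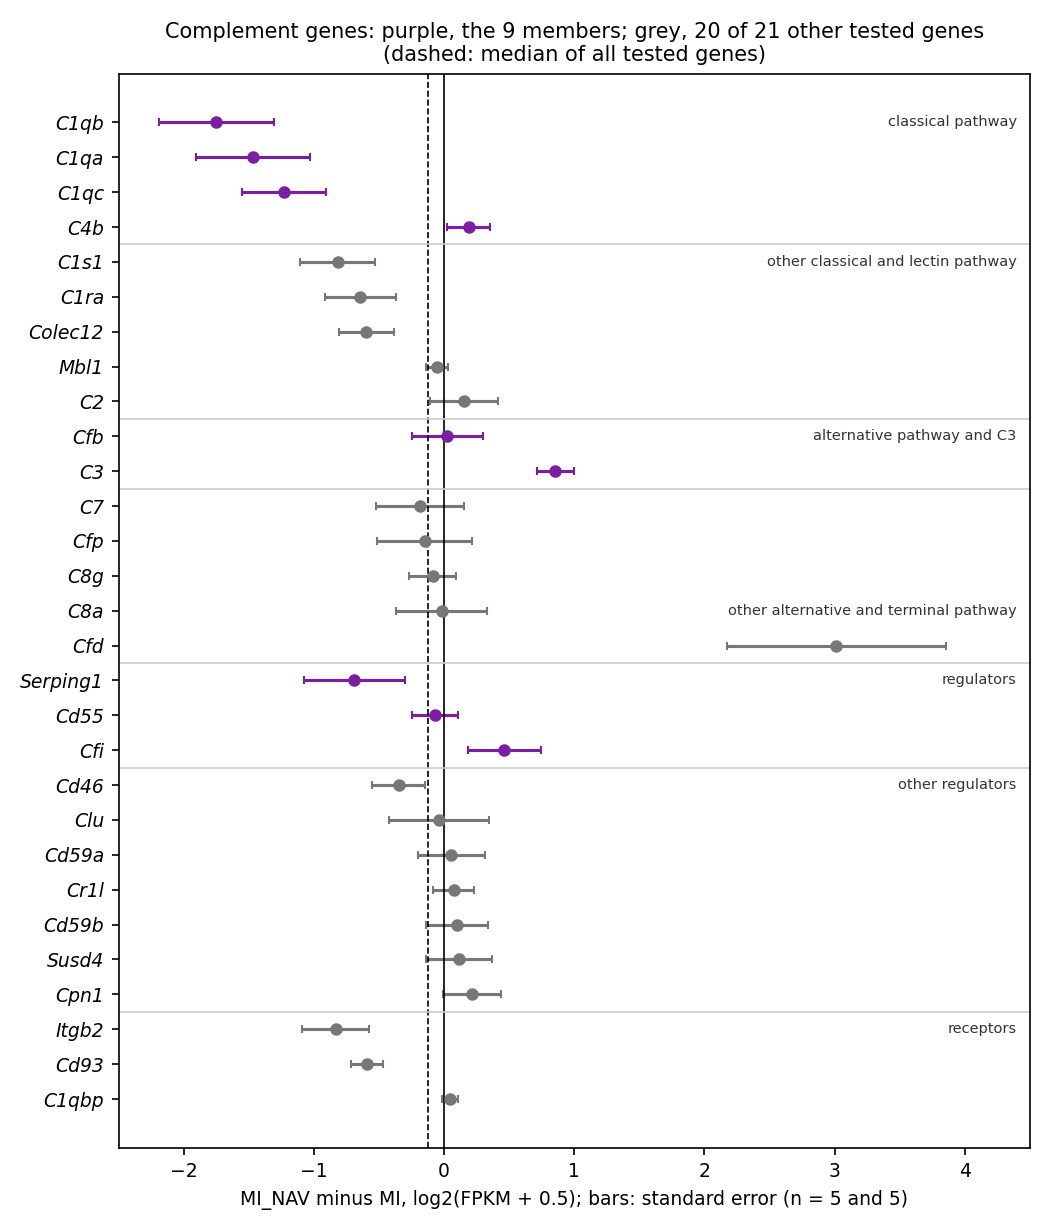
Difference of mean log2(FPKM + 0.5), MI_NAV minus MI (x axis), for the 9 genes (purple) and 20 of the 21 other tested complement genes (grey), grouped by role, with the standard error from the 5 and 5 libraries as bars and the median of all tested genes (-0.12) as a dashed line. C1qb lies lowest at -1.75 and Cfd highest at 3.01, with a wide bar, and Cfb and Cd55 lie at 0.02 and -0.07.

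Of 49 other complement genes listed, 46 were in the table and 21 passed the filter. By limma's test on all tested genes, none of the 21 passed an adjusted p under 0.05 in either direction. The shares of all tested genes that passed were 0.35% lower and 0.0149% higher. Cfd was tested only because it is high in MI_NAV, so its p-values are left out here. Of the others, Cd93 had the lowest limma adjusted p, 0.118. At an unadjusted p under 0.05, 6 of them were lower and none higher, beside 11.5% and 1.25% of all tested genes. The median log2 difference of the 21 was -0.05, and none of the 21 had groups without overlap. Removing MI_4 ended this result, since 6 of the 21 were then lower at an adjusted p under 0.05, among them Itgb2, Cd93, Colec12, C1s1 and C1ra, beside 2.17% of all genes tested without MI_4. So did array weights and the removal of the 4 libraries of highest mitochondrial share, with 5 of these genes lower each, beside 2.39% and 1.61% of all genes tested. That removal kept the filter of 5 libraries with fewer libraries left, so not all of the 21 were tested there.

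Among the classical and lectin pathway genes, the means of the C1 proteases were lower in MI_NAV, as for C1q, but did not pass the test. C1s1, which encodes C1s, averaged 2.15 ± 0.307 FPKM in MI_NAV and 4.44 ± 1.64 FPKM in MI, with a log2 difference of -0.82 (limma adjusted p = 0.199). C1ra, which encodes C1r, averaged 1.62 ± 0.499 FPKM in MI_NAV and 2.89 ± 0.980 FPKM in MI, with a log2 difference of -0.64 (limma adjusted p = 0.292). Each has a near-identical copy, C1s2 and C1rb, so both are uncertain. C2, the protease that joins C4b in the classical convertase, averaged 6.77 ± 1.66 FPKM in MI_NAV and 6.18 ± 2.07 FPKM in MI (limma adjusted p = 0.813). C2 kept a narrow ratio to its neighbour Cfb, 0.0491 to 0.0800 over the 10 libraries. Mbl1, a mannose-binding lectin, averaged 2.58 ± 0.240 FPKM in MI_NAV and 2.70 ± 0.322 FPKM in MI.

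Cfd encodes factor D, the protease that cleaves factor B and is abundant in fat cells. It stood at 4.67, 13.6, 0.515, 23.6 and 2.42 FPKM in MI_NAV1 to MI_NAV5, against 0.157, 0.605 and 0.340 FPKM in MI_2, MI_4 and MI_5, and it was listed at 0 in MI_1 and MI_3. MI_NAV3 lay within the MI range. Cfd passed the filter with all 5 MI_NAV libraries and 1 MI library, MI_4, at or above 0.5 FPKM, so it was tested only because it is high in MI_NAV, and its log2 difference of 3.01 is given as a description. A list of 5 adipocyte markers, chosen after these values were seen, summed to 1.23, 5.65, 0.0539, 5.07 and 1.304 FPKM in MI_NAV1 to MI_NAV5, against 0.0476 to 0.387 FPKM in MI. Adipoq, which encodes adiponectin, stood at 0.568, 2.84, 0, 2.56 and 0.878 FPKM in MI_NAV1 to MI_NAV5, against 0.107 FPKM in MI_2, and was listed at 0 in the 4 other MI libraries. The same 4 MI_NAV libraries were thus above the MI libraries in Cfd, in Adipoq and in the sum of the 5 markers. Not every marker followed. Cidec stood at 0.260 FPKM in MI_NAV1 and 0.176 FPKM in MI_NAV5, within the MI range of 0 to 0.366 FPKM. All 5 markers fell below the filter, and the part of fat tissue in the Cfd difference was not tested. C3, which fat cells also make, was 2.10 FPKM in MI_NAV3, where Adipoq was listed at 0. The part of fat tissue in the C3 difference was not tested.

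**Figure D4:**
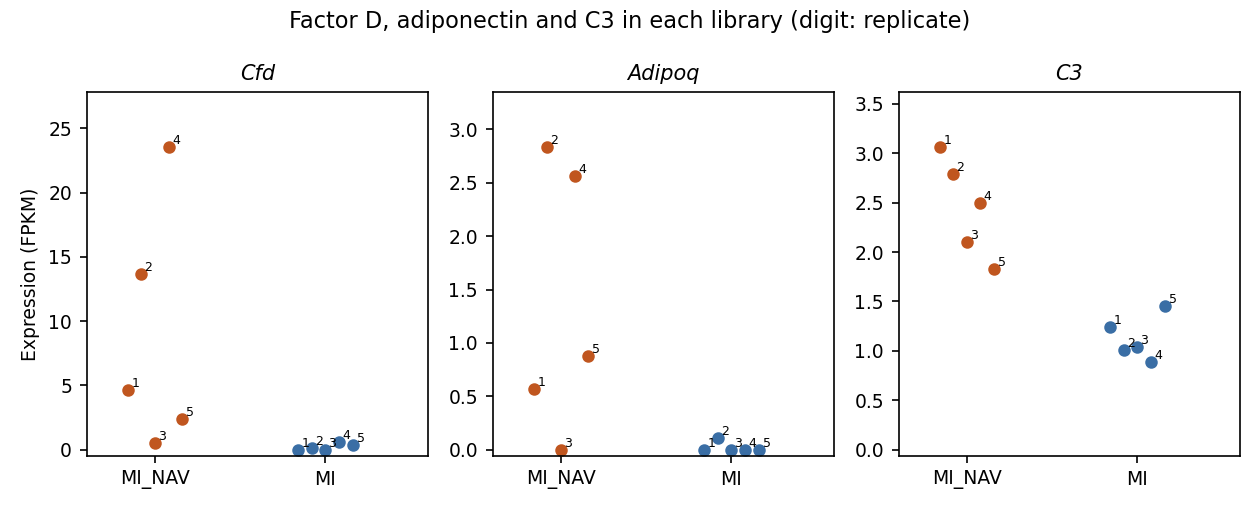
Expression (FPKM, y axis) of Cfd, Adipoq and C3 in each library, MI_NAV in orange on the left and MI in blue on the right, with the replicate number beside each point. Cfd and Adipoq are highest in MI_NAV2 and MI_NAV4 and near 0 in MI_NAV3, while C3 is above every MI library in all 5 MI_NAV libraries.

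The means of the terminal pathway and properdin genes differed by less than 1 SD of either group. C8g and C8a, chains of the membrane attack complex component C8, averaged 8.91 ± 2.30 and 4.28 ± 1.07 FPKM in MI_NAV, and 9.33 ± 1.34 and 4.69 ± 2.68 FPKM in MI. Cfp, which encodes properdin, the stabiliser of the alternative convertase, averaged 1.09 ± 0.835 FPKM in MI_NAV and 1.12 ± 0.392 FPKM in MI. None of the 3 passed at an unadjusted p under 0.05. Neutrophils store properdin, and of 8 neutrophil markers 5 were in the table and 2 passed the filter, with a summed level of 1.38 to 3.46 FPKM in MI_NAV and 1.20 to 7.48 FPKM in MI.

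Of the other regulators, Clu, Cpn1 and Cd59a, which encode clusterin, a chain of carboxypeptidase N and the membrane inhibitor CD59, had log2 differences of -0.04, 0.21 and 0.06, with none past an unadjusted p under 0.05. Cd59a has a related copy, Cd59b, that can share reads.

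Of the receptor genes, Itgb2, the beta chain of the complement receptors CR3 and CR4, averaged 0.479 ± 0.182 FPKM in MI_NAV and 1.297 ± 0.551 FPKM in MI, with a log2 difference of -0.83 (limma adjusted p = 0.153). Cd93, a C1q-related receptor of endothelial and myeloid cells, averaged 0.723 ± 0.112 FPKM in MI_NAV and 1.36 ± 0.287 FPKM in MI (log2 difference -0.59, limma adjusted p = 0.118). C1qbp, which encodes a mitochondrial protein that also binds C1q, averaged 31.4 ± 2.23 FPKM in MI_NAV and 30.5 ± 2.06 FPKM in MI.

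C3 was followed most closely over the 10 libraries, by the same measure as for C1q, by Atp6v1g3, Gm12962, Fabp7, Rdh16f2 and Gm34432, with SDs of the log2 difference of 0.189 to 0.291 beside a median of 0.626 over the 11486 genes. Atp6v1g3, which encodes a subunit of the vacuolar proton pump, averaged 25.2 ± 1.93 FPKM in MI_NAV and 16.7 ± 2.97 FPKM in MI. No complement gene was among these 5. The summed level of 8 simple epithelium and urothelium markers was 229.6, 59.4, 63.5, 258 and 249.5 FPKM in MI_NAV1 to MI_NAV5, against 83.5 to 98.2 FPKM in MI. That sum was above the MI range in MI_NAV1, MI_NAV4 and MI_NAV5 and below it in MI_NAV2 and MI_NAV3, and its part in the C3 difference was not tested.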

How the data were processed

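RNA sequencing of 5 MI_NAV and 5 MI libraries was analysed from a gene table of FPKM that the authors deposited. Per the labels and the study's methods, mRNA was selected by poly(A) tail and read from both ends in libraries that keep strand, and the submitters' processing notes name cutadapt 1.9, HISAT2 2.0.4, StringTie 1.3.4d and mm10. No gene annotation release is given in the sources used here. The authors used DESeq2 and edgeR, which need counts, so limma 3.58.1 in R 4.3.3 took their place (lmFit, eBayes with trend and robust prior) on log2(FPKM + 0.5), over the 13412 genes that reached 0.5 FPKM in 5 or more libraries, adjusted by Benjamini-Hochberg over all of them. Fold changes on this scale understate those of low genes.

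The members and all gene lists were chosen with earlier results of these data known. Named were the 9 genes, the 4 tested genes of highest mean in each list of other complement genes and any past an adjusted p under 0.05, and the 5 genes most like C3 or the C1q mean. A further complement gene that this rule names is counted but not reported here. Adipoq, the adipocyte list, Colec12, and the macrophage and other markers singled out were named after their values were seen. Depth was estimated from the most frequent length-scaled value of genes with 1 transcript, taken as 1 fragment. That value was sought only within a preset window of depths, and FPKM values carry no count of their own. The limma procedure was tested on simulated data in which genes varied independently. Those data held no shift shared by a whole library, so they cannot show how the calls depend on single libraries. Python 3.11.15 and matplotlib 3.10.9 drew the figures. Tried as alternatives were array weights, a replicate block, left-out libraries and changes of pseudocount, filter and scaling.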

Additional observations from a re-analysis of the deposited data

Results flagged for a closer look

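Serping1 in MI held a library far from the others. MI_4 was at 3.90 FPKM, and its gap to the next MI library took 0.744 of the range of the group. Among 24 genes in both groups, 48 sets of 5 libraries, this was the only 1 past the limit, and chance alone passes about 1 in 20.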

How the results depend on the processing

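The 47 genes lower and 2 higher in MI_NAV among all tested genes depended on the settings. Array weights gave 321 lower and 57 higher, leaving out the 4 libraries of highest mitochondrial share 205 lower and 79 higher, no filter 0 lower and 0 higher, and median-ratio rescaling 12 higher. Rescaling to a common sum gave 1 higher. Leaving out each library in turn gave 1 to 287 lower and 0 to 8 higher, with the highest of both without MI_4. Of the other complement genes, 0 passed lower as reported, 5 passed with array weights, 5 without the 4 libraries of highest mitochondrial share, and 0 to 6 with a library left out, 6 only without MI_4. None passed higher under any setting. The cause of these changes was not tested.

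With the replicate number as a replicate block, 5 genes were lower and 1 higher, and 0 other complement genes passed. The numbers did not pair the libraries, since same-numbered libraries had correlations of -0.223 to 0.0461. The 9 genes' log2 differences changed sign in 8 of 19 alternatives for Cfb and in 3 of 19 for Cd55. The other 7 kept their sign in all alternatives that gave a value. The replicate block and the filter changes cannot move a difference, so a kept sign there shows nothing. Low FPKM limits C4b, C1qc and Cfi, which rest on as few as 34, 18 and 26 estimated fragments.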
